A study of Homo sapiens with 4 samples.

Results

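The genes described here encode tropomyosins (TPM1, TPM2, TPM3, TPM4), tropomodulins (TMOD1, TMOD2, TMOD3) and leiomodin (LMOD1), 8 listed genes in all. Each was taken at the array probe that the platform annotation assigns to that gene alone, and where a gene had several such probes, at whichever of them had the highest 4-array mean. By this rule 7 of the 8 genes were measured, out of 18417 genes tested. The annotation used here lists no probe for TPM3, so TPM3 has no value.

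The arrays were 1-colour expression arrays of total RNA from HuH7, a human hepatocellular carcinoma line kept below passage 10 in medium with 10% serum. There were 2 samples of HuH7 stably carrying a control shRNA and 2 carrying shRNA directed at MKL1 and MKL2. All 4 samples were infected with pLKO.1 lentivirus and selected with puromycin for 7 days, so the controls share the vector and the drug. The titles call the samples biological replicates without saying whether they came from separate infections, and the p-values measure only the spread between these samples. The study's question is which genes need MKL1 and MKL2, now named MRTFA and MRTFB, for their transcript level.

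Tropomyosins are coiled-coil proteins that polymerise along both sides of the actin filament and control which myosins, severing proteins and nucleators reach it. Tropomodulins cap the slow-growing pointed end of tropomyosin-coated filaments, and leiomodins are their relatives that nucleate filaments in muscle. MRTFA and MRTFB are held by monomeric actin and, once released, activate transcription with serum response factor (SRF), whose binding sequence is the CArG box; several tropomyosin and leiomodin genes are known targets of this pathway in muscle and fibroblasts.

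Values are log2 expression, and differences are knockdown minus control with limma's standard error. Array medians ran from 5.68 to 5.73. The probe that lists MRTFA, together with a second gene, read 7.79 ± 0.023 in control and 6.86 ± 0.066 in knockdown samples (mean ± SD, n = 2 each). Tested as 1 more row beside the 18417 genes, it had a limma adjusted p of 0.0404, and among all probes one of 0.199, where no probe passed the threshold. MRTFB lay at -0.23 (SE 0.12, limma adjusted p = 0.448) and SRF at -0.44 (SE 0.113, limma adjusted p = 0.188). The arrays matched the label of the line, in that all 12 measured hepatocellular markers of 13 listed lay above the upper quartile of the arrays. None of 7 measured smooth and striated muscle markers did, and their mean log2 level was 5.54 to 5.61 in the controls and 5.46 to 5.64 in the knockdown samples. Of 5 fibroblast markers 1, LUM, lay above the upper quartile, and their mean was 5.65 in both controls and 5.49 and 5.85 in the knockdown samples. No endothelial or leukocyte marker, of 3 each, lay above it. The part of these marker levels in the results below was not tested. Over all genes, the log2 difference between the control arrays had an SD of 0.154, and that between the knockdown arrays an SD of 0.265.

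TPM4 and TPM2 had the lowest differences of the group, at 0.593 and 0.608 of their control levels, and TMOD1 had the highest, at 1.25 times control. TPM1, TMOD2, TMOD3 and LMOD1 lay between them with intervals that included 0. No member passed the threshold, a limma adjusted p under 0.05 over all genes, which 0.174% of all genes passed (0.0923% lower and 0.0814% higher). At an unadjusted p under 0.05 there were 2 lower members, TPM4 and TPM2, and 1 higher, TMOD1. Among all genes 8.04% were lower and 6.25% higher by that measure, or 14.3% in either direction. Without variance moderation TPM2 was no longer among these, nor was TPM4 on its other probe, described below, which left 2 genes in either case. The median difference was -0.08 over the 7 genes, against 0.0082 over all genes.

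**Figure D1:**
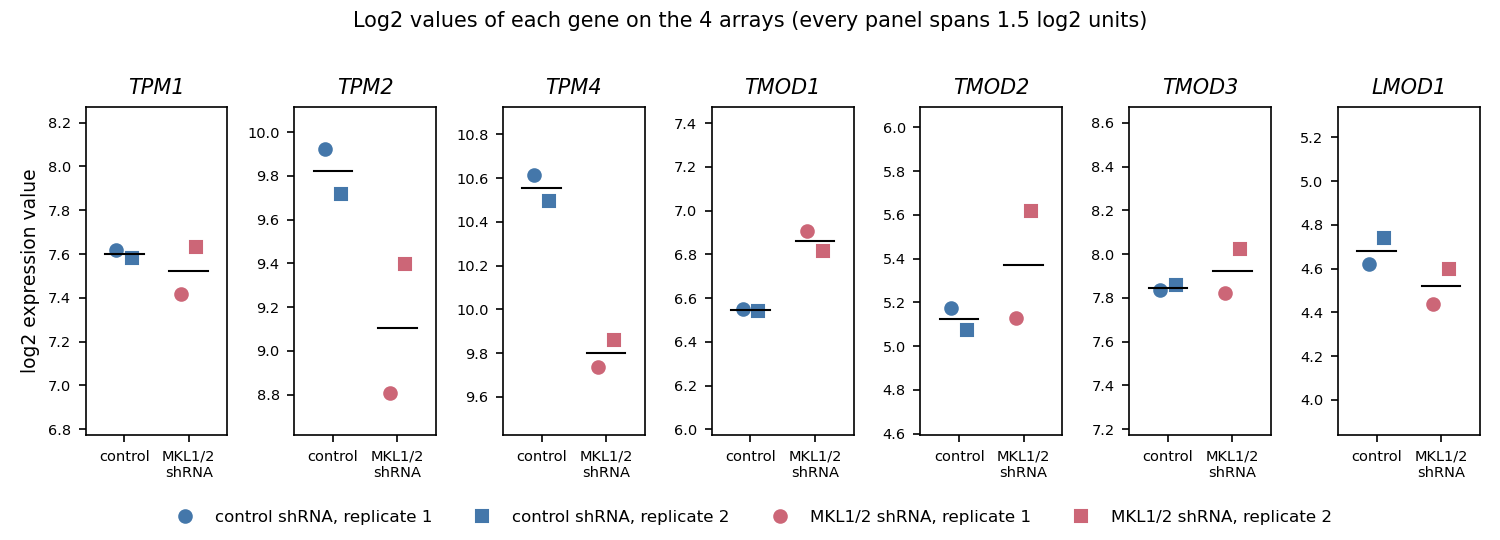
Log2 expression value (vertical axis) of each measured gene on the 4 arrays; circles are replicate 1 and squares replicate 2, blue for control shRNA and red for MKL1/2 shRNA, black bars are group means, and all panels have the same span but different positions on the scale. TPM2 and TPM4 lie lower on both knockdown arrays and TMOD1 higher on both, whereas the groups of TPM1, TMOD2 and TMOD3 overlap.

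TPM4 encodes a non-muscle tropomyosin found on stress fibres. It read 10.61 in control replicate 1 and 10.49 in control replicate 2, and 9.74 in knockdown replicate 1 and 9.86 in knockdown replicate 2. Both knockdown values lay below both control values, with a gap of 0.63 between the groups. The difference was -0.75 (SE 0.104, 95% interval -1.01 to -0.50), with an unadjusted p of 0.000316 and a limma adjusted p of 0.0765, short of the threshold. TPM4 ranked 76 by p among the 18417 genes, and 0.543% of them had a lower difference. With 1 array left out, the lone array of its group is assumed to vary like the other group. The error then comes from the spread of that other group, moderated by limma over all genes. Under that limit TPM4 lay at -0.82 without knockdown replicate 2 and at -0.69 without control replicate 1.

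This value of TPM4 belongs to a probe (8180349) that lists the RefSeq transcript NM_003290. The other TPM4 probe (8026513) lists NM_001145160 and a predicted transcript. On it TPM4 read 9.35 and 9.46 in control replicates 1 and 2, and 9.31 and 8.95 in knockdown replicates 1 and 2. The groups did not overlap, but the gap was 0.044. Knockdown replicate 1 lay 0.098 below the control mean, against 0.82 below it on the first probe. Set against the control mean, knockdown replicate 2 lay at -0.46 on the second probe and -0.69 on the first. The difference on the second probe was -0.28 (SE 0.141, limma adjusted p = 0.435), or 0.824 of control. The probes thus differed by 0.48 in the mean size of the change, more in knockdown replicate 1 than in replicate 2. An exact two-sided permutation test over the 4 samples gave p = 0.333, the smallest p that 2 samples against 2 allow. With the mean of both probes as the TPM4 value, the difference was -0.52 (limma adjusted p = 0.126).

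**Figure D2:**
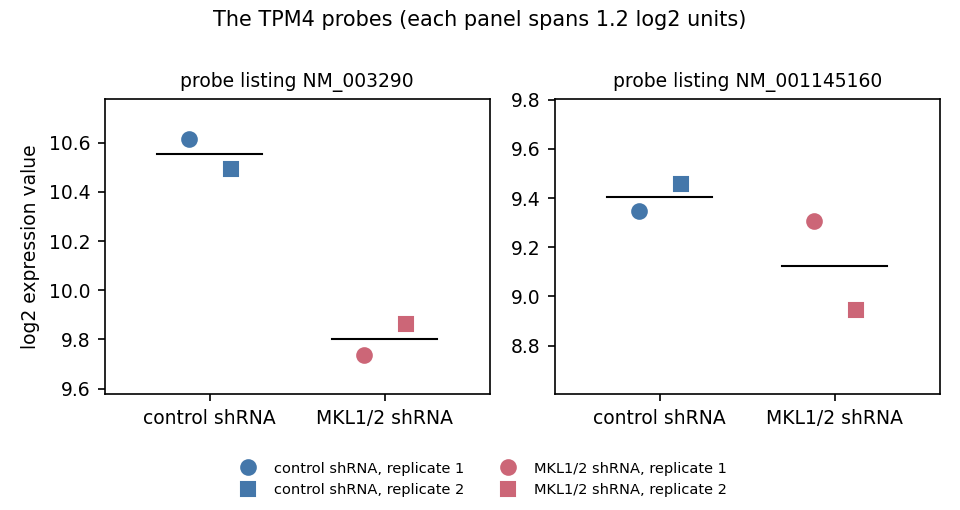
Log2 expression value (vertical axis) on the probe listing NM_003290 (left) and the probe listing NM_001145160 (right); points are single arrays, blue for control and red for MKL1/2 shRNA, circles for replicate 1 and squares for replicate 2, and bars are group means. The left probe separates the groups by 0.63, the right one by 0.044.

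In the promoter windows searched, TPM4 is the 1 gene of the 8 with an exact CArG box. The sequence before its first RefSeq start (GRCh38.p14, plus strand, chr19:16067288-16067537, ending at the base before the start) is shown because it holds that match, in capitals, at bases -173 to -164:
TPM4, first start: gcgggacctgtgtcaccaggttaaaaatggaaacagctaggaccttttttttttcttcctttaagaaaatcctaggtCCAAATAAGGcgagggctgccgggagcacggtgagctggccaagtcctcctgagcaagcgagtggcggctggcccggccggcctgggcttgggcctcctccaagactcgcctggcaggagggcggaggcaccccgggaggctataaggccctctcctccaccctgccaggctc

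The windows ran from 250 bases before to 50 bases after each start in the RefSeq promoter table, which held all 8 genes, with 3 starts for TPM4, 2 each for TPM2, TPM3 and TMOD1 and 1 for each of the others. The CArG consensus is its own reverse complement, so a search of 1 strand covers both. An exact match was present for 1 of the 8 genes, and for 1.6% of all 27305 genes of the table (1.29% of 35116 promoters). A gene with more starts, such as TPM4, has more windows in which a match can fall. Allowing 1 mismatch, a rule added after the values were seen, 4 of the 8 genes held a match (TPM4, TMOD1, TMOD3 and LMOD1), as did 22.3% of all genes. Near matches numbered 2 for TPM4, 3 for TMOD1, 1 for TMOD3 and 2 for LMOD1. All are shown beside the exact match, with the matched bases in capitals:
TPM4, start 1 (plus strand, chr19:16067355-16067384): aatcctaggtCCAAATAAGGcgagggctgc
TPM4, start 2 (plus strand, chr19:16076290-16076319): agcgctttctCCAAATAAGTcccgaaaagg
TPM4, start 3 (plus strand, chr19:16076793-16076822): cctcgggccgCCTTTTTACGccctcggacg
TMOD1, start 1, match 1 (plus strand, chr9:97500930-97500959): aatCCAAAATAAGacgttttcctatttcta
TMOD1, start 1, match 2 (plus strand, chr9:97501015-97501044): gaataaaccaCCTAAAGTGGtttgttctga
TMOD1, start 1, match 3 (plus strand, chr9:97501057-97501086): aaaaaaaaagCCTTTTAAGAacttgggtct
TMOD3, start 1 (plus strand, chr15:51829456-51829485): tcggggaagtCCATAGTAGGtacttccacg
LMOD1, start 1, match 1 (minus strand, chr1:201946714-201946743): ggccccttgtCTTTAAAAGGctaaactgct
LMOD1, start 1, match 2 (minus strand, chr1:201946689-201946718): ctgctctgtaCTAAATTTGGtcacgcagcg

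TPM2, which lay nearly as low as TPM4, had no match in these windows by either rule, nor had TPM1, TPM3 or TMOD2. Which TPM4 start gives which transcript on the probes was not assigned here, and whether the box bears on the TPM4 values was not tested.

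TPM2 encodes the beta-tropomyosin of muscle and of stress fibres. Its probe lists 9 accessions, of which 2 are among the 6 RefSeq transcripts of TPM2, so its spliced forms are not told apart here. TPM2 read 9.92 and 9.72 in control replicates 1 and 2, and 8.81 and 9.40 in knockdown replicates 1 and 2. The groups did not overlap, with a gap of 0.32, but the knockdown samples lay 0.59 apart, with replicate 1 the lower. The difference was -0.72 (SE 0.2, 95% interval -1.20 to -0.23), with an unadjusted p of 0.0111 and a limma adjusted p of 0.213. It was -1.01 without knockdown replicate 2 (limma adjusted p = 0.0245, where 781 genes passed) and -0.42 without knockdown replicate 1 (limma adjusted p = 0.165). Both of these p-values rest on the spread of the controls alone, moderated over all genes, and leave out the 0.59 between the knockdown samples.

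TPM1, the alpha-tropomyosin gene, whose many spliced products include muscle and non-muscle forms, showed no such difference. It read 7.62 and 7.58 in control replicates 1 and 2, and 7.42 and 7.63 in knockdown replicates 1 and 2. Knockdown replicate 1 was the lowest value and replicate 2 the highest, so the groups overlapped. The difference was -0.08 (SE 0.111, limma adjusted p = 0.816), with a 95% interval of -0.35 to 0.19. The probe lists 20 accessions, of which 8 are among the 58 RefSeq transcripts of TPM1, so this value does not tell its spliced forms apart.

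The tropomyosin genes were compared with each other by the size of their change within each array, in 3 pairs. TPM1 lay above TPM4 by 0.68, at 0.63 in knockdown replicate 1 and 0.72 in replicate 2, each set against the control mean. TPM1 lay above TPM2 by 0.64, at 0.83 in replicate 1 and 0.45 in replicate 2. For both pairs the exact two-sided permutation p was 0.333, the smallest possible here, or 0.5 adjusted over the 3 pairs. The separation of TPM1 from TPM4 was 0.20 with the second TPM4 probe. TPM2 and TPM4 differed by 0.037 (exact permutation p = 1), with TPM2 the lower in knockdown replicate 1 and TPM4 the lower in replicate 2.

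TPM3P9, a pseudogene of TPM3, has a probe of its own, which is no measure of TPM3 itself. TPM3P9 read 9.49 ± 0.042 in control and 9.47 ± 0.032 in knockdown samples (SD, n = 2 each), a difference of -0.02.

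Among the pointed-end genes, TMOD1, the capping protein of muscle and red cells, read higher in the knockdown samples. It read 6.55 and 6.54 in control replicates 1 and 2, and 6.91 and 6.82 in knockdown replicates 1 and 2. The groups lay 0.27 apart, and replicates within a group differed by 0.011 in the controls and 0.091 in the knockdown samples. The difference was 0.32 (SE 0.095, 95% interval 0.084 to 0.55), with an unadjusted p of 0.0155 and a limma adjusted p of 0.233. Of all genes, 94.5% had a lower difference than TMOD1. Without knockdown replicate 1 the TMOD1 difference was 0.27 and without knockdown replicate 2 it was 0.36, neither past the threshold.

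TMOD3, the tropomodulin expressed in most tissues, read 7.83 and 7.86 in control replicates 1 and 2, and 7.82 and 8.02 in knockdown replicates 1 and 2. The groups overlapped, since only knockdown replicate 2 lay above the controls. The difference was 0.08 (SE 0.109, limma adjusted p = 0.81), with a 95% interval of -0.19 to 0.34.

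TMOD2, the neuronal tropomodulin, read 5.17 and 5.07 in control replicates 1 and 2, and 5.13 and 5.62 in knockdown replicates 1 and 2. Only knockdown replicate 2 stood apart from the other arrays, 0.49 above the control mean. The difference was 0.25 (SE 0.169, limma adjusted p = 0.569), and 0.0045 without knockdown replicate 2. LMOD1, the leiomodin gene of smooth muscle, read 4.62 and 4.74 in control replicates 1 and 2, and 4.44 and 4.60 in knockdown replicates 1 and 2. Both knockdown values lay below both controls, with a gap of 0.023, which is less than the 0.12 between the controls. The LMOD1 difference was -0.16 (SE 0.108, limma adjusted p = 0.56). TMOD2 and LMOD1 lay below the median of every array, and no background level was available, so it is not known whether these values stand above background.

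**Figure D3:**
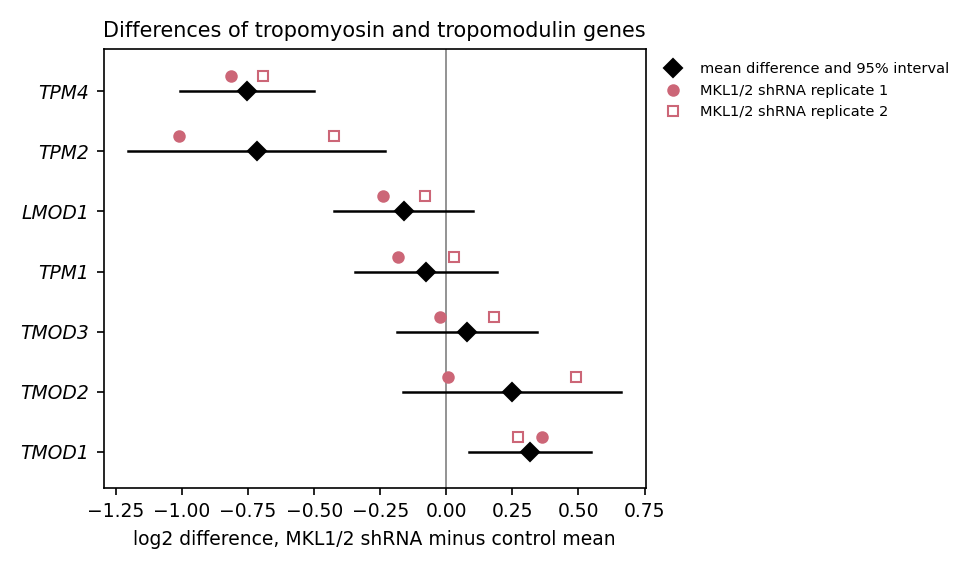
Log2 difference from the control mean (horizontal axis) for each gene; diamonds and lines are the mean difference of the 2 knockdown arrays with limma's 95% interval, and the red circle and open square above each line are knockdown replicates 1 and 2. The intervals of TPM4 and TPM2 lie below 0 and that of TMOD1 above it, and the TPM2 arrays stand at -1.01 and -0.42.

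In order of their differences the genes ran TPM4, TPM2, LMOD1, TPM1, TMOD3, TMOD2 and TMOD1. The intervals of neighbours in this order overlapped. By groups, 3 genes (TPM4, TPM2 and LMOD1) had both knockdown values below both controls and 1 (TMOD1) had both above. Over all genes these shares were 23.0% and 22.5%, or 45.5% in either direction. The 3 tropomyosins had a median of -0.72, at -0.82 in knockdown replicate 1 and -0.42 in replicate 2. That median is the value of TPM2. With the second TPM4 probe, TPM4 is the middle gene instead, at -0.28. The 4 tropomodulin and leiomodin genes had a median of 0.16, at -0.0095 in knockdown replicate 1 and 0.23 in replicate 2. On the probes used, every gene except TMOD1 read lower in knockdown replicate 1 than in replicate 2, by 0.12 for TPM4 up to 0.59 for TPM2. On the second TPM4 probe the order was the reverse, at 9.31 in knockdown replicate 1 and 8.95 in replicate 2. How many of all genes read lower in knockdown replicate 1 was not counted.

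The genes closest to TPM4 in pattern over the 4 arrays were ZYX, which encodes the focal adhesion protein zyxin, IQGAP3, and the zinc finger gene ZNF714. Their Euclidean distances from TPM4 on its first probe, on log2 values centred on each gene's mean, were 0.023, 0.052 and 0.053. Because these genes were picked for that closeness, their differences from control had to lie near that of TPM4 and are no separate result. ZYX read 10.94 and 10.79 in control replicates 1 and 2, and 10.03 and 10.16 in knockdown replicates 1 and 2, a difference of -0.77 (SE 0.108, limma adjusted p = 0.0817). IQGAP3 lay at -0.73 (SE 0.098) and ZNF714 at -0.71 (SE 0.1).

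Other proteins that share the filament with tropomyosin were taken as 4 lists. Of 17 measured thin filament partners (troponins, calponins, nebulins, caldesmon and the remaining tropomodulin relatives), 1 passed over all genes. This was CNN1, which encodes calponin 1 and fell by 2.49 (SE 0.137, limma adjusted p = 0.00679). CNN2, its relative in non-muscle cells, lay at -0.84 (SE 0.146, limma adjusted p = 0.11), and NEB, the giant thin filament protein nebulin, at -0.51 (SE 0.119, limma adjusted p = 0.162). NEB lay below the median of every array, so it is not known whether its values stand above background. At an unadjusted p under 0.05 there were 4 lower partners and none higher, the fourth being CALD1 (caldesmon), named after its value was seen. The shares over all genes were 8.04% lower and 6.25% higher, here and for the lists that follow. Without the dimmest 40% of genes, 3 partners had an unadjusted p under 0.05. The list's median was 0.016. Without control replicate 1 or control replicate 2 no partner passed, nor did any other gene, and without knockdown replicate 2 there were 3 partners among 781 genes, with the error taken from the controls alone.

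None of the 16 measured genes for barbed-end capping or filament severing passed over all genes in limma. Of these 16, 5 were lower and none higher at an unadjusted p under 0.05, against 8.04% and 6.25% of all genes. The 3 with the smallest p were the villin gene VIL1 (-0.52, SE 0.102), the severing factor gene DSTN (-0.53, SE 0.142) and the capping protein gene EPS8 (-0.34, SE 0.098). The other 2 were CAPG and TWF1, named after their values were seen. The median of that list was -0.10.

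None of 19 measured actin nucleators passed over all genes in limma, and 4 were lower and 1 higher at an unadjusted p under 0.05, against 8.04% and 6.25% of all genes. The formin genes DIAPH3 and FMNL2 lay at -0.61 (SE 0.135) and -0.50 (SE 0.12), and ACTR3, a subunit of the Arp2/3 complex, at -0.46 (SE 0.122). ARPC5 was the fourth lower gene and COBL the higher one, both named after their values were seen. The list's median was -0.07, and without knockdown replicate 2 it had 3 of the 781 genes past the threshold, on the spread of the controls alone.

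None of 11 measured genes of the spectrin membrane skeleton, in which tropomodulin caps short filaments, passed over all genes in limma. DMTN, which encodes the actin-bundling protein dematin, was the 1 gene with an unadjusted p under 0.05, at 0.35 (SE 0.102). ANK3 and EPB41L2 lay at 0.23 (SE 0.151) and -0.18 (SE 0.117), and the median was 0.084.

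**Figure D4:**
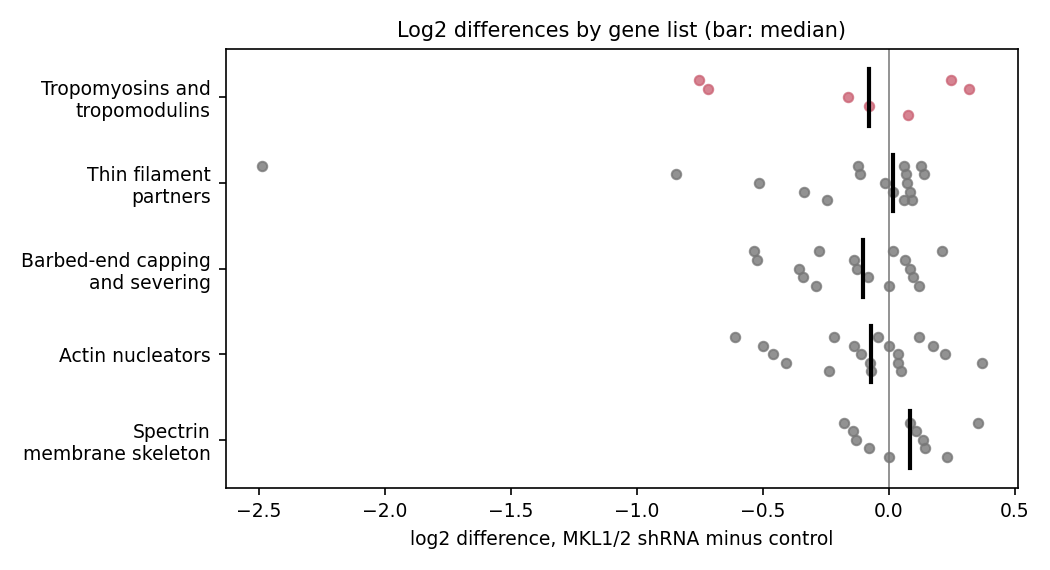
Log2 difference, knockdown minus control (horizontal axis), of every measured gene in 5 lists; each point is 1 gene, its small vertical offset has no meaning, and the black bar is the list's median. CNN1 is the point at -2.49, and TPM4 and TPM2 stand at the left of the top row.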

How the data were processed

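The deposited table holds log2 expression values for 33297 probes on 4 arrays. Per the submitters' processing notes Partek was used; how the authors corrected, normalized and summarized the intensities is not given in the sources used here, and no background level was at hand. That the scale is log2 was judged from the range of values. Probes were named from the platform annotation, with symbols updated through Entrez identifiers in the RefSeq table of GRCh38.p14. Of the probes, 19460 list 1 symbol, 1754 several and 12083 none.

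Knockdown was compared with control by limma's moderated two-sided test (version 3.58.1, R 4.3.3), with no covariate, on 18417 genes, with Benjamini-Hochberg adjustment over all of them. The fit had 2 residual and 4.12 prior degrees of freedom. The code was tested on simulated data. The number of arrays limits the precision.

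Named genes are the members, the shRNA targets and SRF, the 3 genes of smallest p in each list and the 3 nearest profiles to the member of smallest p. Members, lists and tests were chosen with earlier results of these data known. Alternatives changed the normalization, dim-gene filter, probe, moderation, threshold, block and arrays used.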

Additional observations from a re-analysis of the deposited data

How the results depend on the processing

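No member passed under any other normalization, filter, probe choice or variance moderation at an adjusted p of 0.05; 1 (TPM4) passed at 0.10, and 0 to 2 passed with 1 array left out. At an unadjusted p under 0.05 there were 1 to 4 members with 1 array left out, 2 without moderation and 2 with the other TPM4 probe. A fit with 1 array left out takes its spread from the other group alone, moderated over all genes. Over all genes the count of 32 became 0 on all probes, 0 without moderation (1840 at an unadjusted p under 0.05), 51 with robust moderation, 144 at a threshold of 0.10 and 5 at 0.01, and ran from 0 to 781 with 1 array left out. With the replicate number as a block it was 93, with 0 members and TPM4 at a limma adjusted p of 0.0654. TPM4 had a limma adjusted p of 0.0536 with an intensity trend and 0.273 on all probes. In the fit without moderation its adjusted p was 0.47. Replicate differences of control and knockdown arrays correlated at -0.067 over genes. The labels do not say that the replicate number marks a shared day or batch, so the block was only an alternative. Thin filament partners past the threshold numbered 0 on all probes, 0 without moderation and 0 to 3 with 1 array left out, barbed-end genes 0 to 1 and nucleators 0 to 3. TPM1 ran from -0.18 to 0.031 and TMOD3 from -0.024 to 0.18, TMOD2 from 0.0045 to 0.49 and LMOD1 from -0.24 to -0.081 with 1 array left out, and the members' median from -0.18 to 0.031. TPM2 minus TPM4 turned to -0.20 with the mean of a gene's probes and -0.44 with the other TPM4 probe, and ran from -0.19 to 0.27 with 1 array left out. CArG matches rose from 1 gene to 4 with 1 mismatch. Without the dimmest 40% of genes, 5 of the 7 members were tested. The causes of these changes were not tested, and no background level sets which dim values can be read.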
